A study of Homo sapiens with 6 samples.

Results

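The ubiquitin-specific proteases (USPs) are the largest family of human deubiquitinases, enzymes that cut ubiquitin from proteins or take ubiquitin chains apart. Most are cysteine proteases with a shared catalytic fold and differ in the flanking domains that place them at the proteasome, on chromatin, on endosomes or on mitochondria. Opposing the ubiquitin ligases, they set the lifetime or the activity of regulators such as MYC, MDM2 and histones, and arsenic trioxide itself acts on the leukaemia fusion protein through SUMO and ubiquitin. The members were taken by name, as every listed gene whose symbol is USP followed by a number and at most 1 letter, with USP9Y left out. This gave 48 genes of the 23858 listed, all 48 protein-coding in the annotation and spread over 18 chromosomes, 4 of them on X.

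RNA was measured in NB4, a human cell line from acute promyelocytic leukaemia with the PML-RARA fusion. There were 2 groups of 3 libraries, cells given arsenic trioxide for 6 h and control cells, all grown in the same medium with fetal bovine serum, and the labels state no dose. Levels are in RPKM, that is, reads per exon length and per library total. The labels do not say whether replicates were separate cultures, so the p-values rest on the spread between libraries alone, which may be technical. In such bulk RNA, fewer cells with a transcript and less of it per cell cannot be told apart.

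Library totals were 21185966 to 22300255 reads after arsenic trioxide and 19361333 to 22609019 in controls, and 3 reads, taken as the floor, are 0.133 to 0.155 RPKM for 1 kb of exon (counting error only). HMOX1, a stress-induced haem-degrading enzyme, was at 203 to 328 RPKM in the treated libraries and at 0.662 to 1.24 RPKM in controls. On the second principal component of all tested genes, arsenic trioxide replicate 3 and control replicate 1 stood apart from the other 4 libraries. Of 6 promyelocyte markers 5 were listed (MPO, AZU1, PRTN3, CTSG and CD33), with a summed level of 667 to 1006 RPKM after arsenic trioxide and 998 to 1389 RPKM in controls. Of the markers of other cell types, 4 are given here (CD3D, CD79A, EPCAM and APOA1), and their summed level was 9.41 to 11.2 RPKM after arsenic trioxide and 9.06 to 11.1 RPKM in controls. Among these APOA1 was at 0.0639 to 0.315 RPKM after arsenic trioxide and at 0.209 to 0.363 RPKM in controls. The part of these differences in the USP values was not tested.

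The question was which USP transcripts changed within 6 h of arsenic trioxide. USP30, the deubiquitinase of the mitochondrial outer membrane, rose 2.21-fold, while USP36, a nucleolar deubiquitinase, fell to 0.624 of its control level. Smaller rises were seen for USP47, USP33, USP11, USP9X and USP14, and smaller falls for USP42, USP32 and USP24. The other tested members, among them the abundant USP22, USP10, USP7, USP5 and USP39, did not pass the test. Differences were tested on log2 of RPKM + 1 with limma-trend, over the 16803 genes averaging 1 RPKM or more, and called at a Benjamini-Hochberg adjusted p under 0.05. All log2 fold changes below are on that scale.

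Of the 48 members 41 reached 1 RPKM and were tested. Of these, 6 were higher and 4 lower after arsenic trioxide, together 24.4%, against 25.4% of all tested genes, so the share of USP genes that changed was near the background. Among tested protein-coding genes the share was 31.0%. By direction, 14.6% of the members and 12.0% of all tested genes were higher, and 9.76% of the members and 13.4% of all tested genes were lower (14.3% and 16.7% of protein-coding genes). The median log2 fold change was 0.07 for the members and -0.003 for all tested genes, and the median size of the change regardless of sign was 0.149 for the members and 0.247 for all tested genes. The members were more abundant than the average tested gene, with a median level of 11.8 RPKM against 5.73 RPKM, and their median standard error was smaller, 0.091 against 0.131. None of the 10 called members reached a log2 change of 1 on the RPKM + 1 scale, although USP30 at 0.98 passed it with a pseudocount of 0.1 (1.13), limma-voom (1.151) or upper-quartile factors (1.02). It is a size seen with a call in 3.59% of all tested genes and 2.74% of the protein-coding ones. At an unadjusted p under 0.05 there were 15 members (36.6%), against 39.2% of all tested genes and 44.9% of protein-coding genes. Summed over all 48 members, the level was 709.5 ± 11.1 RPKM after arsenic trioxide and 698 ± 6.66 RPKM in controls (SD, n = 3 each) and the groups overlapped.

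**Figure D1:**
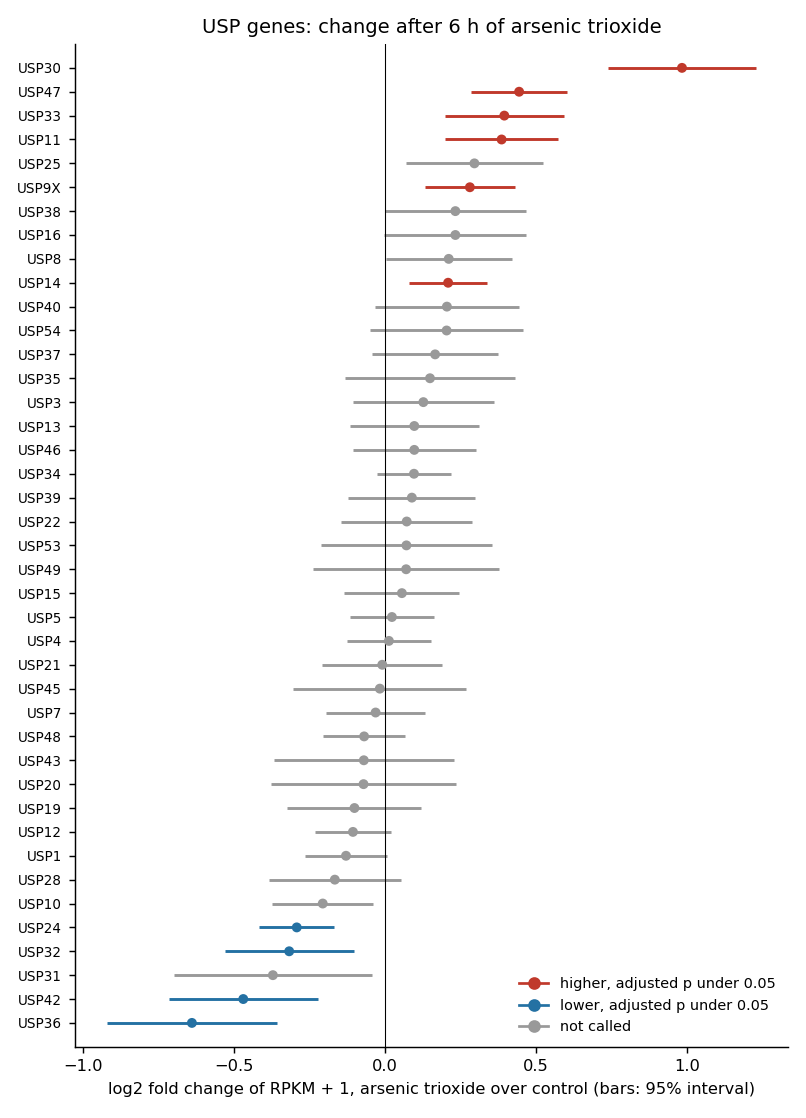
Log2 fold change of RPKM + 1, arsenic trioxide over control, of the 41 tested USP genes, ordered by size, with 95% intervals (3 libraries per group). USP30 at 0.98 lies apart from the rest, which run between -0.64 and 0.44; coloured points are the 10 called genes.

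USP30, USP47, USP36 and USP24 were called under every alternative that could test them. To show the sequence around a start site of such genes, the RefSeq promoter windows of the first 3 are given (USP24 is named only). Each window runs from 250 bases before to 50 after the RefSeq start (GRCh38.p14), 5′ to 3′ on the gene's strand. Motif matches are in capitals and other bases in lower case. The windows lie at chr12:109022839-109023138 (plus strand), chr11:11841722-11842021 (plus strand) and chr17:78840765-78841064 (minus strand), in the order USP30, USP47, USP36. Those of USP47 and USP36 lie inside the gene spans of GENCODE 29 given below, so their RefSeq starts are not the outer ends of those spans.
USP30: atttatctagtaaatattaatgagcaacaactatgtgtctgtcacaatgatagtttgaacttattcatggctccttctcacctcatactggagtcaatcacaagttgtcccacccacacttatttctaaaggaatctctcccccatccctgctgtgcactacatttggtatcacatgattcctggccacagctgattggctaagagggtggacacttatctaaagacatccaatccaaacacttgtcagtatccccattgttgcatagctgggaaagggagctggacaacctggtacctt
USP47: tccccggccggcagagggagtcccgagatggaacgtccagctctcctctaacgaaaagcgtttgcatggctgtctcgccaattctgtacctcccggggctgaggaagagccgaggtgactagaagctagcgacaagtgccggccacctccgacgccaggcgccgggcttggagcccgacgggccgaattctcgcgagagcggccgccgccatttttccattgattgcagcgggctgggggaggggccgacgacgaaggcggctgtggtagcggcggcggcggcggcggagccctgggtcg
USP36: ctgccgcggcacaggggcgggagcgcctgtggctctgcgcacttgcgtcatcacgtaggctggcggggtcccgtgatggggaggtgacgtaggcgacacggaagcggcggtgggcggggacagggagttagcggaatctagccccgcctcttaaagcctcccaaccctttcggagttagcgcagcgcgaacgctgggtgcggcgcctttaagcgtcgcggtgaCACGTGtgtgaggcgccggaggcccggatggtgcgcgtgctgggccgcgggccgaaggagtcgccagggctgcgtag
The window of USP36 holds the E-box CACGTG, the site of MYC and MAX and of related factors, from base -27 to -22 relative to the RefSeq start. Those of USP30 and USP47 hold none of the 4 motifs searched.

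A promoter window was found for 37 of the 48 members, and 4 motifs were searched on both strands. The E-box CACGTG stood in 3 of the 37 windows (8.11%), those of USP28, USP32 and USP36, against 7.43% of 27305 windows of all genes. The antioxidant response element TGACNNNGC, bound by NRF2, stood in 4 (USP2, USP13, USP14 and USP38), 10.8% against 13.6% of all windows. The C/EBP-ATF element TGATGNAA, bound by ATF4 with C/EBP partners, stood in the window of USP50 alone, 2.70% against 3.67%. The heat shock half-site pair GAANNTTC stood in 0 of 37 against 6.87% of all windows. Of the 7 called members with a window, USP32 and USP36, both lower, carried the E-box, and USP14, higher, carried the antioxidant element. These matches describe the letters of the windows only.

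USP30, which removes ubiquitin from proteins of the mitochondrial outer membrane and so counteracts PINK1 and Parkin driven mitophagy (ENSG00000135093, chromosome 12, 109023089 to 109088026, GRCh38), was at 9.53, 8.69 and 8.62 RPKM after arsenic trioxide and at 3.55, 4.42 and 4.16 RPKM in controls. All 3 treated libraries lay well above all 3 controls. The means were 8.95 ± 0.505 and 4.04 ± 0.446 RPKM (SD, n = 3 each), and the log2 fold change was 0.98 ± 0.10 SE (adjusted p by limma-trend = 0.00153). The gene shares exon bases with the antisense RNA USP30-AS1, which had 22, 15 and 21 reads after arsenic trioxide and 3, 9 and 2 reads in controls and lay under the 1 RPKM filter (log2 fold change 0.81, adjusted p by limma-trend = 0.0212 with no filter). The library kit is taken from its name not to mark strand, in which case reads from the shared stretch cannot be told apart. USP30 itself had 1091, 945 and 973 reads in the treated libraries and 368, 439 and 483 reads in controls.

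The other members of the group listed here under endoplasmic reticulum, mitochondria and mitophagy (USP13, USP15, USP19, USP25 and USP35) were not called. USP25, described after its values were seen, is a relative of USP28 with a role in degradation from the endoplasmic reticulum and was at 10.5, 9.93 and 8.92 RPKM after arsenic trioxide and at 7.27, 7.55 and 8.54 RPKM in controls (log2 fold change 0.30 ± 0.10 SE, adjusted p by limma-trend = 0.0627). The groups did not overlap, and USP25 was called with limma-voom (adjusted p = 0.0205, and 0.0205 to 0.172 over all alternatives) and with upper-quartile factors (0.0453). USP15, which counteracts Parkin, was at 9.04, 9.30 and 8.78 RPKM after arsenic trioxide and at 8.82, 8.02 and 9.15 RPKM in controls (0.06, 95% interval -0.13 to 0.25). USP13, USP19, which is anchored in the endoplasmic reticulum membrane, and USP35 had log2 fold changes of 0.10, -0.10 and 0.15. USP30 was the 1 called member of the 6 in this group, where 25.4% of all tested genes were called. With so few genes this count is a description only.

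USP36, a nucleolar deubiquitinase that stabilises MYC and acts on ribosome synthesis (ENSG00000055483, chromosome 17, 78787381 to 78841441), was at 12.8, 12.1 and 15.1 RPKM after arsenic trioxide and at 24.6, 18.9 and 20.6 RPKM in controls. Every treated library lay below every control. The means were 13.35 ± 1.58 and 21.4 ± 2.92 RPKM (SD, n = 3 each), and the log2 fold change was -0.64 ± 0.12 SE (adjusted p by limma-trend = 0.00995). USP42, a relative of USP36 (ENSG00000106346, chromosome 7, 6104884 to 6161564), was at 6.66, 6.88 and 8.11 RPKM after arsenic trioxide and at 9.33, 10.9 and 10.9 RPKM in controls. It fell too (-0.47 ± 0.10 SE, adjusted p by limma-trend = 0.0182), a call that was lost without arsenic trioxide replicate 1 (adjusted p = 0.0589) or 2 (0.0563) and without control replicate 2 (0.0621) or 3 (0.0649). The other members tied to MYC did not pass: USP28 was at 10.5, 11.0 and 9.56 RPKM after arsenic trioxide and at 10.55, 12.6 and 12.04 RPKM in controls (-0.17, 95% interval -0.38 to 0.05), and USP37 had a log2 fold change of 0.17.

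**Figure D2:**
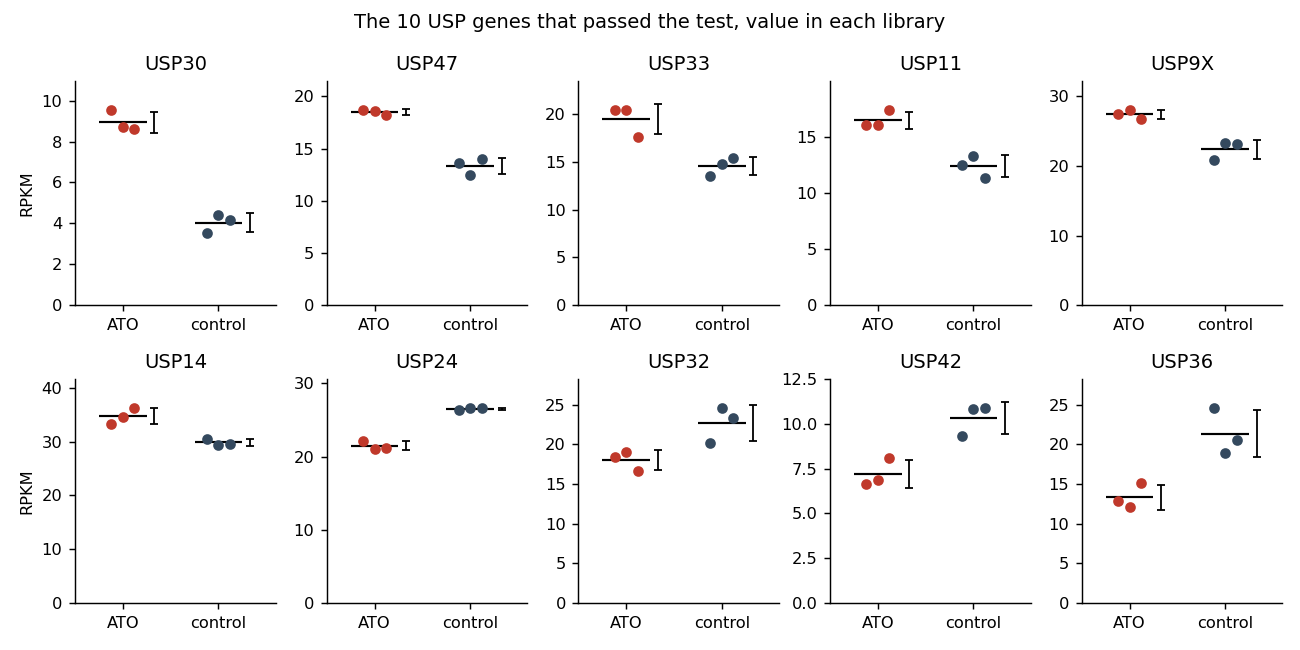
RPKM of the 10 called USP genes in each of the 3 arsenic trioxide (ATO) and 3 control libraries (points), with the mean (line) and SD (bar at the side); each axis starts at 0. The groups do not overlap in any of the 10 genes. These were chosen by the test on the same values, so the lack of overlap adds no support to the calls. Among all tested genes, 21.9% had every treated library above every control and 22.6% had every one below. Relative to its level USP30 shows the widest distance, at 8.62 to 9.53 RPKM against 3.55 to 4.42 RPKM.

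Of the 9 members tied to DNA damage or MDM2, 2 rose and 1 fell, where 25.4% of all tested genes were called; over so few genes the count is a description only. USP47, a relative of USP7 that acts on DNA polymerase beta in base excision repair (ENSG00000170242, chromosome 11, 11841423 to 11959323), was at 18.7, 18.6 and 18.2 RPKM after arsenic trioxide and at 13.6, 12.4 and 14.0 RPKM in controls. The treated libraries lay close together and above every control (log2 fold change 0.44 ± 0.07 SE, adjusted p by limma-trend = 0.00476). USP11, which takes part in recombination repair through BRCA2 (ENSG00000102226, chromosome X, 47232690 to 47248328), was at 16.1, 16.0 and 17.4 RPKM after arsenic trioxide and at 12.5, 13.3 and 11.4 RPKM in controls, again without overlap (0.39 ± 0.08 SE, adjusted p = 0.0139). Its call was lost when arsenic trioxide replicate 3 and control replicate 1 were both left out (adjusted p = 0.0723). USP24, a large relative of USP9X (ENSG00000162402, chromosome 1, 55066359 to 55215113), was at 22.15, 21.1 and 21.2 RPKM after arsenic trioxide and at 26.3, 26.65 and 26.6 RPKM in controls. The 3 controls were nearly equal and all above the treated libraries (-0.29 ± 0.05 SE, adjusted p by limma-trend = 0.00869).

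The best known members of this group were not called. USP7, which deubiquitinates MDM2, was at 39.7, 40.0 and 37.8 RPKM after arsenic trioxide and at 39.1, 37.5 and 43.8 RPKM in controls, with overlapping groups (log2 fold change -0.03, 95% interval -0.20 to 0.13). USP10, a cytoplasmic deubiquitinase that binds the stress granule proteins G3BP1 and G3BP2, was at 52.5, 49.5 and 44.5 RPKM after arsenic trioxide and at 55.9, 54.8 and 58.35 RPKM in controls. Its treated libraries all lay below the controls, but the difference was not called (-0.21 ± 0.07 SE, 95% interval -0.37 to -0.04, adjusted p by limma-trend = 0.0733). Over the alternatives the adjusted p by limma was 0.0419 to 0.189, the lowest with limma-voom. USP48 was at 17.6, 18.29 and 18.32 RPKM after arsenic trioxide and at 19.27, 18.33 and 19.43 RPKM in controls, groups that all but touch (-0.07, 95% interval -0.21 to 0.07). USP4, a relative of USP11 and USP15, had a log2 fold change of 0.01 (95% interval -0.13 to 0.15).

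USP1, which with its activator WDR48 removes ubiquitin from FANCD2 and PCNA, was at 37.3, 38.7 and 37.9 RPKM after arsenic trioxide and at 43.7, 39.2 and 42.0 RPKM in controls. The treated libraries lay just below the controls and the difference was not called (log2 fold change -0.13 ± 0.06 SE, adjusted p by limma-trend = 0.147). USP12 and USP46, close relatives that are also activated by WDR48, had log2 fold changes of -0.11 and 0.10 and were not called either. WDR48 itself was at 8.52, 8.88 and 7.40 RPKM after arsenic trioxide and at 6.41, 8.27 and 7.88 RPKM in controls (0.12, 95% interval -0.15 to 0.40).

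At the proteasome, USP14, which trims ubiquitin chains on substrates bound to the 19S particle (ENSG00000101557, chromosome 18, 158383 to 214629), was at 33.3, 34.5 and 36.25 RPKM after arsenic trioxide and at 30.6, 29.4 and 29.6 RPKM in controls. The groups did not overlap (log2 fold change 0.21 ± 0.05 SE, adjusted p by limma-trend = 0.0319), but the call was lost on leaving out any 1 of the 6 libraries (0.0501 to 0.0988) and with median-ratio factors (0.0537). USP14 shares exon bases with THOC1, which was not called (-0.09), and in all 16 of the 48 members share exon bases with another listed gene. The other deubiquitinases of the particle were PSMD14, the JAMM metalloprotease of the lid, at 32.9, 32.0 and 31.95 RPKM after arsenic trioxide and at 24.6, 22.6 and 24.65 RPKM in controls (0.42, adjusted p = 0.00362), and UCHL5 at 22.6, 25.1 and 22.0 RPKM after arsenic trioxide and at 26.6, 26.2 and 28.0 RPKM in controls (-0.21, adjusted p = 0.0645). So PSMD14 rose, the small rise of USP14 was not stable and UCHL5 was not called. PSMD14 and UCHL5 were not followed singly through the alternatives, and they share exon bases with AC009299.2 and TROVE2. USP5, which takes apart unanchored ubiquitin chains, was at 38.1, 34.0 and 35.5 RPKM after arsenic trioxide and at 34.8, 35.0 and 35.9 RPKM in controls (0.02, 95% interval -0.12 to 0.16), and its relative USP13 was at 0.10.

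Of the 4 tested members grouped under endosomes, membrane receptors and the secretory pathway, 1 rose and 1 fell, where 25.4% of all tested genes were called. So small a group allows a description only. USP33, first found as a partner of the VHL tumour suppressor and involved in receptor recycling (ENSG00000077254, chromosome 1, 77695987 to 77759852), was at 20.4, 20.4 and 17.6 RPKM after arsenic trioxide and at 13.55, 14.7 and 15.4 RPKM in controls. The groups did not overlap, with arsenic trioxide replicate 3 nearest to the controls (log2 fold change 0.39 ± 0.08 SE, adjusted p by limma-trend = 0.0153). The call was lost without arsenic trioxide replicate 1 (0.0535) or 2 (0.0510). USP32, a membrane-anchored member found at the Golgi and endosomes (ENSG00000170832, chromosome 17, 60179094 to 60422470), was at 18.3, 19.1 and 16.6 RPKM after arsenic trioxide and at 20.2, 24.6 and 23.3 RPKM in controls. It fell without overlap (-0.32 ± 0.09 SE, adjusted p = 0.0428), a call lost on leaving out any 1 library but control replicate 1 (0.0633 to 0.125) and with upper-quartile factors (0.0705). USP32 has pseudogene copies that can share its reads, and those listed, USP32P1, USP32P2 and USP32P3, lay at 0.266 to 1.36 RPKM over the 6 libraries.

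USP8, which acts with STAM proteins on receptors sorted at endosomes, was at 7.89, 8.35 and 8.42 RPKM after arsenic trioxide and at 6.70, 6.59 and 7.65 RPKM in controls. The groups did not overlap, and the difference was not called (log2 fold change 0.21 ± 0.09 SE, adjusted p by limma-trend = 0.125), although it was with limma-voom (0.0336). USP20, the closest relative of USP33, had a log2 fold change of -0.07. USP9X, a large and widely expressed deubiquitinase with the survival protein MCL1 among its substrates (ENSG00000124486, chromosome X, 41085635 to 41236579), was at 27.5, 28.0 and 26.75 RPKM after arsenic trioxide and at 20.8, 23.3 and 23.1 RPKM in controls. Every treated library was above every control (0.28 ± 0.06 SE, adjusted p = 0.0193). Its call was lost without arsenic trioxide replicate 1 (0.0582) or 2 (0.0600) and without arsenic trioxide replicate 3 and control replicate 1 together (0.0526).

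Of 8 histone deubiquitinases 5 were tested and 0 were called by limma-trend, also 0 at an unadjusted p under 0.05 and 0 with limma-voom. Among all tested genes these shares were 25.4%, 39.2% and 31.2%, so 0 of 5 says little about the group. USP22, the catalytic subunit of the deubiquitinase module of the SAGA coactivator and one of the most abundant members, was at 58.9, 48.8 and 55.6 RPKM after arsenic trioxide and at 56.9, 48.5 and 49.7 RPKM in controls (log2 fold change 0.07, 95% interval -0.14 to 0.29). USP3, USP16, USP21 and USP49, which act on histone H2A or H2B, had log2 fold changes of 0.13, 0.23, -0.01 and 0.07. Of the subunits that activate USP22, ATXN7L3 was at 16.9, 15.6 and 16.4 RPKM after arsenic trioxide and at 23.7, 21.1 and 20.9 RPKM in controls and fell (-0.40 ± 0.07 SE, adjusted p by limma-trend = 0.00844). ENY2 was at 4.95, 5.78 and 5.83 RPKM after arsenic trioxide and at 6.24, 6.37 and 6.75 RPKM in controls (-0.20, adjusted p = 0.185).

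USP27X and USP51, relatives of USP22 that compete with it for ATXN7L3 and ENY2, were expressed below 1 RPKM on average and so were not among the tested genes. USP51 had 76, 128 and 92 reads after arsenic trioxide and 35, 38 and 27 reads in controls, with levels of 1.03 ± 0.307 and 0.370 ± 0.0895 RPKM (SD, n = 3 each). The groups did not overlap, and USP51 was called when the filter was dropped (log2 fold change 0.56, adjusted p by limma-trend = 0.0269), a scale on which the change of a gene this low is understated. In the authors' deposited table its log2 fold change is 1.47, at an adjusted p of 5.62e-05. USP27X had 23, 7 and 21 reads after arsenic trioxide and 1, 2 and 6 reads in controls, counts that are too low for a firm fold. Its adjusted p was 0.0193 in the authors' deposited table and 0.0633 in the limma-trend fit without the filter.

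The other 5 members under the filter had few reads. USP18, which removes the ubiquitin-like ISG15 from proteins and is induced by interferon, had 49, 41 and 61 reads after arsenic trioxide and 52, 35 and 28 reads in controls, with overlapping groups. USP41, which closely resembles USP18 in sequence so that reads may be split between them, had 2 to 7 reads after arsenic trioxide and 5 or 6 reads in controls. USP44 and USP50 also overlapped between groups. USP2 had 11, 21 and 18 reads after arsenic trioxide and 4, 7 and 7 reads in controls, without overlap and without a call in the fit with no filter (adjusted p by limma-trend = 0.112).

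**Figure D3:**
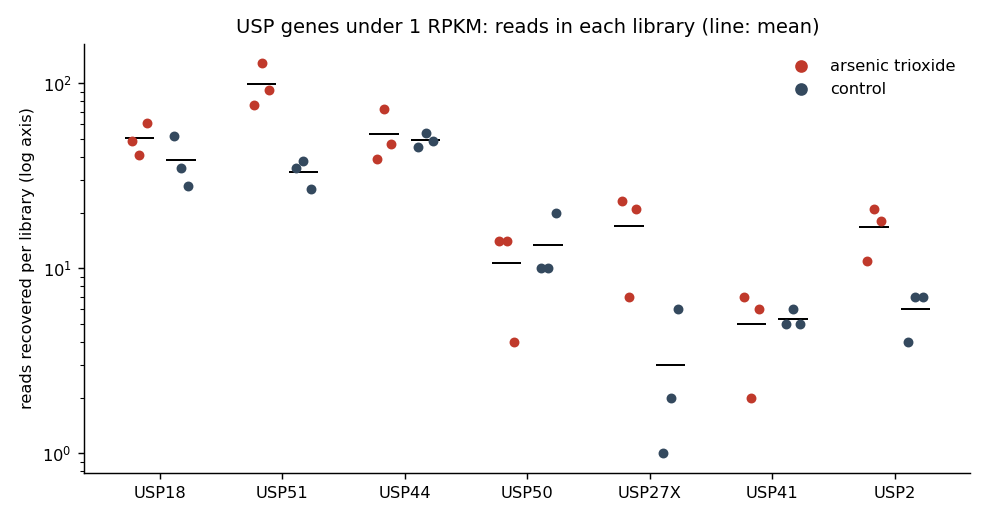
Reads recovered per library (log axis) for the 7 USP genes with a mean under 1 RPKM, in 3 arsenic trioxide and 3 control libraries, with the mean as a line. USP51, USP27X and USP2 have all treated libraries above all controls, at 76 to 128 against 27 to 38 reads for USP51. Reads are not scaled for the library totals. How often other genes under 1 RPKM stand apart in this way was not counted, so this is a description only.

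Of USP39, USP53 and USP54, 0 were called by limma-trend, also 0 at an unadjusted p under 0.05 and 0 with limma-voom. Beside shares of 25.4%, 39.2% and 31.2% among all tested genes, 0 of 3 says little about them. USP39, a spliceosome component, was at 43.55, 39.5 and 35.5 RPKM after arsenic trioxide and at 34.1, 38.9 and 38.1 RPKM in controls (log2 fold change 0.09, 95% interval -0.12 to 0.30). USP53 and USP54 were at 0.07 and 0.20.

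The mean over the 6 libraries of the tested members ran between 1.53 RPKM for USP43 and 53.1 RPKM for USP22. It was above 30 RPKM in 7 members, USP22, USP10, USP7, USP1, USP39, USP5 and USP14, and above 10 RPKM in 23. USP22 at 54.45 ± 5.14 RPKM and USP10 at 48.8 ± 4.03 RPKM in treated cells overlapped in their single libraries, as did USP10 at 56.4 ± 1.80 RPKM and USP22 at 51.7 ± 4.55 RPKM in controls (SD, n = 3 each). Across the 41 tested members Pearson's r between the mean level on the log2 scale and the log2 fold change was -0.14, and it was -0.001 between exon length on a log scale and the log2 fold change. These are descriptions over genes of the same 6 libraries.

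Besides the 10 called members, 12 of the tested members had groups that did not overlap but did not pass the test. In 7 the treated libraries lay above (USP25, USP38, USP8, USP40, USP54, USP37 and USP34) and in 5 below (USP31, USP10, USP1, USP12 and USP48). Together with the called genes, 13 tested members had every treated library above every control, 31.7% against 21.9% of all tested and 25.4% of protein-coding genes. Every treated library lay below in 9 tested members, 22.0% against 22.6% and 27.8%. The largest change that was not called was that of USP31, at 2.96, 2.93 and 3.97 RPKM after arsenic trioxide and at 5.08, 4.20 and 4.28 RPKM in controls (log2 fold change -0.37 ± 0.14 SE, adjusted p by limma-trend = 0.0929), chosen here after its values were seen. It was called without arsenic trioxide replicate 3 (0.0480) and with limma-voom (0.0129). Of the 31 members that were not called, 30 had a 95% interval within a 1.5-fold change in either direction. USP31 was the exception, with an interval of -0.70 to -0.04.

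Related members were compared within each library by the ratio of their RPKM values, over 13 pairs chosen for sequence kinship with their values known. USP47 over USP7 was 0.470, 0.465 and 0.481 after arsenic trioxide and 0.348, 0.332 and 0.319 in controls, a log2 difference of 0.50. The ratio was higher in all treated libraries; of the pair, USP47 was called higher and USP7 was not called. USP25 over USP28 was 1.00, 0.903 and 0.932 after arsenic trioxide and 0.689, 0.597 and 0.709 in controls (0.51). USP33 over USP20 was 2.44, 2.67 and 2.42 after arsenic trioxide and 2.04, 1.595 and 1.725 in controls (0.50). The groups also stood apart for USP11 over USP4 (0.40), USP11 over USP15 (0.35), USP12 over USP46 (-0.22) and USP51 over USP22 (1.40). For each of these 7 pairs the exact two-sided permutation test gave p = 0.1, the smallest that 3 against 3 libraries allow. After Benjamini-Hochberg adjustment over the 13 pairs it was 0.186. How often the ratios of other gene pairs stand apart was not counted. Among single tested genes, 21.9% lay wholly above the controls and 22.6% wholly below, so the 7 of 13 pairs are a description only. USP36 over USP42, both lower, was 1.93, 1.755 and 1.865 after arsenic trioxide and 2.64, 1.74 and 1.89 in controls, with overlapping groups (-0.15, exact permutation p = 0.7).

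**Figure D4:**
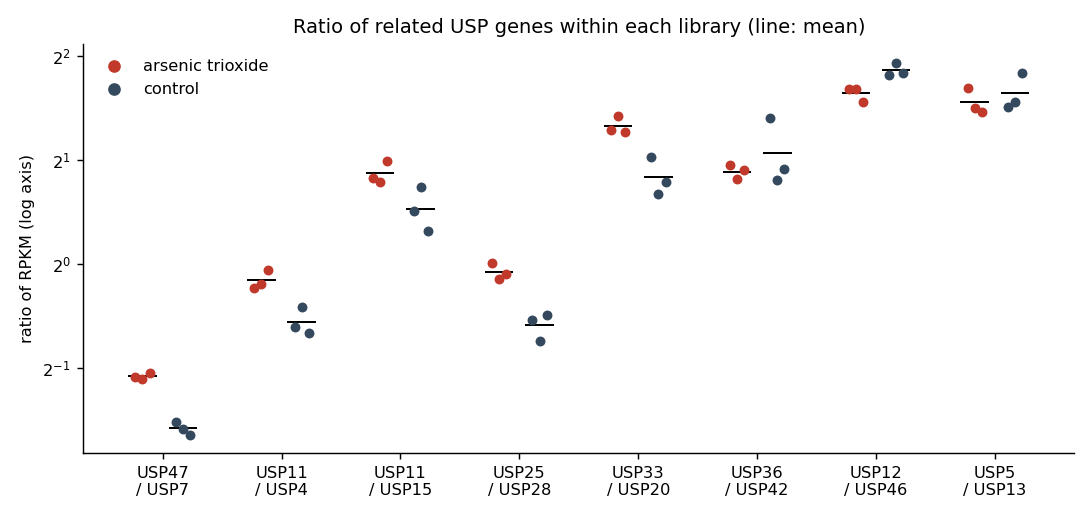
Ratio of the RPKM values of 8 pairs of related USP genes in each library (log axis), 3 arsenic trioxide and 3 control libraries per pair, with the mean as a line. For USP47 over USP7 the treated libraries lie at 0.465 to 0.481 and the controls at 0.319 to 0.348, while the groups overlap for USP36 over USP42 and USP5 over USP13.

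Outside the USP family, 38 of 42 other deubiquitinases were listed and 35 tested, of which 8 rose and 4 fell (median log2 fold change -0.01), beside 12.0% higher and 13.4% lower among all tested genes. The 6 with the smallest p-values were PSMD14, OTUD5, CYLD, BAP1, OTULIN and OTUD4. CYLD, a tumour suppressor with a USP-type catalytic domain that trims linear and K63-linked chains in NF-kB signalling, rose to 5.55 ± 0.5675 RPKM after arsenic trioxide, against 2.995 ± 0.383 RPKM in controls (SD, n = 3 each, log2 fold change 0.715, adjusted p by limma-trend = 0.00823). OTULIN, which cuts linear chains, rose to 20.1 ± 0.430 RPKM, against 15.4 ± 1.135 RPKM in controls (0.37, adjusted p = 0.0111), and OTUD5 rose by 0.45 (adjusted p = 0.00525). BAP1, the chromatin deubiquitinase of histone H2A, fell to 23.7 ± 1.80 RPKM, against 31.2 ± 0.762 RPKM in controls (-0.38, adjusted p = 0.00874), and OTUD4 fell (-0.30, adjusted p = 0.01405). PAN2, a USP-fold protein without protease activity that shortens poly(A) tails, was the other relative of the USPs that rose (0.34, adjusted p by limma-trend = 0.03895). It was picked out once the values were known. CYLD, OTUD4 and PAN2 share exon bases with RP11-327F22.4, ABCE1 and CNPY2, while OTUD5, OTULIN and BAP1 share none with a listed gene. None of these deubiquitinases was followed singly through the alternatives.

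Of 17 partner genes of USPs, all tested, 1 rose and 4 fell (median log2 fold change -0.13), again beside 12.0% higher and 13.4% lower among all tested genes. STAM2, the endosomal partner of USP8, rose to 8.315 ± 0.586 RPKM after arsenic trioxide, against 5.26 ± 0.171 RPKM in controls (0.57, adjusted p by limma-trend = 0.00532). UHRF1, a partner of USP7 in DNA methylation, fell to 20.8 ± 1.19 RPKM, against 32.1 ± 0.9435 RPKM in controls (-0.60, adjusted p = 0.00139). MDM4, a relative of MDM2 stabilised by USP7, fell to 13.0 ± 0.4205 RPKM, against 17.3 ± 0.956 RPKM in controls (-0.38, adjusted p = 0.00843). G3BP2, a stress granule protein bound by USP10, fell (-0.32, adjusted p = 0.00999), while G3BP1 was at 42.3, 42.0 and 52.7 RPKM after arsenic trioxide and at 61.8, 55.3 and 53.8 RPKM in controls and was not called (-0.32, adjusted p = 0.0605). MDM2 (0.10), also named with its value known, was not called. The partner genes were not followed singly through the alternatives either.

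With limma-voom on reads recovered from the RPKM values, 8 members were higher and 6 lower, together 34.1% against 31.2% of all tested genes and 41.0% of protein-coding genes. These include all 10 members called on the RPKM scale and, besides them, USP25, USP8, USP10 and USP31. By the authors' deposited table, 8 of 48 members were higher and 5 lower at an adjusted p under 0.05, 16.7% and 10.4%, together 27.1%. The share over the 23393 genes with an adjusted p in the authors' deposited table was 25.3% (12.6% higher and 12.7% lower). The authors' deposited table gives USP14 an adjusted p of 0.0832, and for the called members its fold changes have the same sign as those given here.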

How the data were processed

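Libraries were made from total RNA after removal of ribosomal RNA, with the NEBNext Ultra RNA kit, per the labels' protocols. The kit is taken here, from its name, not to mark strand, and no source used here gives the strand setting of the counting. HISAT2 2.1.0, HTSeq, DESeq2 and build hg38 are named, without roles or parameters, per the submitters' processing notes, and the column names mark duplicates as removed, per the file headers. The deposited table holds RPKM of 23858 genes made by the authors. Per the file headers it also holds a mean normalized signal, a log2 fold change with its error, a test score, and p-values before and after adjustment, all of the authors. The mean signal served to recover reads, and fold changes and adjusted p-values are quoted where the authors' deposited table is named. A positive sign there means higher after arsenic trioxide, as judged from the RPKM.

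The test was limma-trend (limma 3.58.1 in R 4.3.3, treatment as the only term) on log2(RPKM + 1), over all 16803 genes averaging 1 RPKM or more. Whole reads were recovered with exon lengths of GENCODE 29 and 1 total per library. Within 0.01 reads, 93.0% of genes were whole in every library, and 100.0% once the deposited mean signal settled the length. No listed gene had under 21 reads in sum. Coordinates count from 1 (GRCh38). A run of the test on simulated reads gave every gene the same spread setting, so it cannot vouch for the calls in these data. Named with values were every called member and 15 members fixed by name. So were up to 6 called genes with the smallest p-values in each of the 2 other lists, and 6 further genes. Others were added with values known, as marked. USP51, USP27X and USP2 were outside this rule, and their reads are given with the values known. Members, lists and tests were chosen with earlier results of these data known. Alternatives were upper-quartile and median-ratio factors, no filter, a filter at 2 RPKM, pseudocounts of 0.1 and 5, limma-voom, a block on replicate number, the omission of each library and 2 added after the data were seen. Results on 2 listed genes, a marker of another cell type and a partner gene, are not reported here by name.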

Additional observations from a re-analysis of the deposited data

How the results depend on the processing

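Of the 10 called members, USP30, USP47, USP36 and USP24 were called under each of the alternatives that could test them (15 for USP30, 16 for the others), and the other 6 lost the call in at least 1. No called member changed sign. Of the 31 members not called, USP25, USP8, USP10 and USP31 were called in 1 or 2 alternatives, 27 in none, and 8 changed sign. Leaving out 1 library left 3 to 5 members higher, 2 to 4 lower, 1331 to 1525 of all genes higher, 1427 to 1908 lower, 5 to 6 other deubiquitinases higher, 1 to 5 lower and 1 to 2 partner genes higher. With the replicate number as a block, 3 members were higher and 3 lower (USP33, USP9X, USP14 and USP32 lost the call, at adjusted p = 0.0509 to 0.0872 by limma), 1460 of all genes were higher and 1616 lower, and 5 other deubiquitinases were higher and 1 lower. Deviations from the group means of same-numbered libraries correlated at -0.085, 0.148 and -0.083, within the range of differently numbered ones (-0.158 to 0.221). With 3 libraries per group, this cannot tell whether the numbers pair them. Without arsenic trioxide replicate 3 and control replicate 1, an alternative chosen after seeing the data, 3 members were higher, 1200 of all genes higher and 1484 lower, and 5 other deubiquitinases higher and 2 lower. Without genes whose exons overlap, also chosen after seeing the data, 1286 of all genes were higher, 1393 lower, and 4 other deubiquitinases were higher, as fewer genes were tested. With limma-voom 8 other deubiquitinases were lower and 2 partner genes higher, and with upper-quartile factors 2 partner genes were higher. The cause was not tested for the other shifts. Depth limits USP27X, USP41, USP50 and USP2, which had 1 to 23 reads per library.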
